A study of Homo sapiens with 6 samples.

Results

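The Frizzled genes *FZD1* to *FZD8* and the genes of the co-receptors *LRP5* and *LRP6* are described in wild-type (WT) HaCaT keratinocytes and in HaCaT cells that lack FGF receptor 2 (*FGFR2* KO). They were found by symbol through their gene identifiers and make up 10 of the 21475 genes measured. The genes were selected on their family and with the FPKM values of the comparison of KO with WT already known, by which *FZD4* was singled out, so the differences of these 10 genes are given as a description and without a test.

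Frizzled proteins are multi-pass receptors that bind secreted Wnt proteins through a cysteine-rich domain outside the cell. When a Wnt protein brings a Frizzled together with LRP5 or LRP6, Dishevelled is recruited to the membrane, the complex that destroys β-catenin is blocked, and β-catenin turns on target genes with TCF/LEF factors. Frizzled receptors also act without β-catenin, in the alignment of cells within an epithelium (planar cell polarity), and FZD4 has a further ligand, Norrin, in blood vessels of the retina. In skin, Wnt signalling is known for its part in hair follicle formation and in the growth of the basal epidermis.

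HaCaT cells are human keratinocytes that became immortal spontaneously, and they were grown in DMEM with 10% serum and no added stimulus. The 3 KO libraries came from lines grown from single cells after a Cas9 cut in *FGFR2*. The 3 WT libraries came from lines without the knockout. According to the study these WT lines, too, were expanded from clones, while its wider set of WT lines also includes the population from which the KO lines were made. Each library is 1 cell line, so the spread between libraries includes differences between clones, and differences that arose in cloning cannot be told apart from those of the knockout.

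Levels are FPKM, fragments counted relative to gene length and library depth, which allow genes to be compared per length. The depth estimated from the steps of low values was 67660000 to 88040000 fragments per library. The targeted gene *FGFR2* was at 15.0 to 39.7 FPKM in WT and at 2.26 to 4.31 FPKM in KO, so all 3 KO libraries were below all 3 WT libraries (log2 difference −2.73, SE 0.36, adjusted p = 0.261 by limma; exact two-sided permutation p = 0.1, the smallest that 3 against 3 libraries allow). The keratinocyte markers *KRT5*, *KRT14*, *TP63*, *KRT6A*, *KRT17*, *CDH1* and *ITGA6* summed to 11359.9 to 21365.6 FPKM in WT and to 16870.8 to 33926.6 FPKM in KO. These sums overlapped and came mainly from *KRT5*, *KRT14* and *KRT6A*. The log2 difference was positive for 5 of the 7 markers, but only 0.01 for *ITGA6*, and it was −0.02 for *TP63*. *CDH1* was lower in all KO lines, at 166 to 222 FPKM against 235 to 246 FPKM in WT. Markers of other cell types were far lower in summed level: the fibroblast genes were at 7.74 to 17.6 FPKM in WT and 6.88 to 12.3 FPKM in KO, mainly through *COL1A1*. The endothelial genes were at 18.1 to 27.2 FPKM in WT and 5.82 to 17.5 FPKM in KO, mainly through *VWF*. *PECAM1* did not exceed 0.321 FPKM, and *CDH5* was at 4.92 FPKM in WT replicate 2 and did not exceed 0.128 FPKM in the other libraries. Melanocyte genes did not exceed 2.44 FPKM and immune genes 1.69 FPKM in sum, with *MLANA* and *TYR* listed at 0 in the 3 WT libraries. According to the study, the WT and KO lines were expanded from clones, so these sums are not read as shares of other cell types. In bulk RNA of such a line, fewer cells expressing a gene and less RNA per cell cannot be told apart.

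The comparison of KO with WT was fitted over the 12241 genes that averaged 0.5 FPKM or more in the 6 libraries. At an adjusted p of at most 0.05 and a log2 difference of at least 0.5, limma called 0 of 12241 genes (0%), and the smallest adjusted p was 0.261. The study, which fitted a count model, did report genes that differed between KO and WT, with *FGFR2* strongly lower in KO. A count of 0 from this fit of FPKM thus does not show that the knockout was without effect. Without adjustment, 2065 genes had a p of at most 0.05, and 1536 genes (12.5%) also passed the fold threshold, 1251 of them (10.2%) higher and 285 (2.33%) lower in KO. The split depended on scaling: it was 785 higher and 521 lower with median-of-ratios scaling, and 803 higher and 502 lower with quantile normalization. The median log2 difference of all tested genes was 0.09, and −0.02 with median-of-ratios scaling. The groups did not overlap for 2951 genes (24.1%), with all KO above all WT libraries for 2245 (18.3%) and all KO below all WT for 706 (5.77%).

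In WT cells, the 10 genes covered a wide range of levels. *FZD6* (ENSG00000164930), which acts mainly in planar cell polarity, was the most abundant at 67.0 ± 16.1 FPKM (SD, n = 3 cell lines). The co-receptors followed, with *LRP5* (ENSG00000162337) at 31.9 ± 9.61 FPKM and *LRP6* (ENSG00000070018) at 9.0 ± 2.35 FPKM. The next Frizzled gene was *FZD7* (ENSG00000155760) at 3.23 ± 0.504 FPKM. Below it lay *FZD1* (ENSG00000157240) at 1.84 ± 0.256, *FZD5* (ENSG00000163251) at 1.71 ± 0.220 and *FZD2* (ENSG00000180340) at 1.26 ± 0.418 FPKM. The lowest levels were those of *FZD3* (ENSG00000104290) at 0.374 ± 0.0784, *FZD4* (ENSG00000174804) at 0.293 ± 0.0589 and *FZD8* (ENSG00000177283) at 0.172 ± 0.0511 FPKM.

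Of the 9 pairs of neighbours in this order, 6 were apart, with the 3 libraries of the higher gene all above the 3 of the next. The libraries overlapped between *FZD1* and *FZD5*, between *FZD5* and *FZD2* and between *FZD3* and *FZD4*. The rank was the same in all 3 WT libraries for 8 of the 10 genes. Among the WT lines, replicate 2 was the outermost for 9 of the 10 genes: it held the highest level of 5 and the lowest level of 4.

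*FZD6* alone made up 84.4% to 88.5% of the summed FPKM of *FZD1* to *FZD10* in WT and 78.9% to 88.1% in KO. Its level was 70.8, 49.4 and 80.9 FPKM in the WT replicates 1, 2 and 3 and 89.8, 60.5 and 45.3 FPKM in the KO replicates 1, 2 and 3. The groups overlapped fully: the highest and the lowest of the 6 libraries were both KO lines. The log2 difference, KO minus WT, was −0.07 (SE 0.28), and it ranged from −0.32 to 0.17 as each library was left out. The exons of *FZD6*, on chromosome 8 from 103298433 to 103332866 in GRCh38, share 138 bases with *BAALC-AS1* on the opposite strand.

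*FZD4* stood at low levels in both groups and was higher in every KO line. It was at 0.254, 0.360 and 0.263 FPKM in the WT replicates 1, 2 and 3. In the KO replicates 1, 2 and 3 it was at 0.770, 0.640 and 0.822 FPKM. The lowest KO line was above the highest WT line, and the mean was 0.293 ± 0.0589 FPKM in WT and 0.744 ± 0.0940 FPKM in KO (SD, n = 3 each), a ratio of 2.54. With the estimated depth, these levels correspond to 139 to 180 fragments per library in WT and 337 to 527 in KO. On the scale of log2(FPKM + 0.5), which understates changes of genes at this level, the difference was 0.65 (SE 0.23).

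The size of the *FZD4* difference turned on the number added before the logarithm. Its direction was the same in every setting in which it was fitted. With all KO lines above all WT lines, neither the added number nor leaving out a library could have reversed that direction. The difference was 1.11 (SE 0.39) when 0.1 FPKM was added and 0.43 (SE 0.16) when 1 FPKM was added. Leaving out each library in turn gave 0.61 to 0.71, and removing the median of each chromosome in each library gave 0.61. *FZD4* was kept by the filter on low values through its KO level: its mean over the 6 libraries was 0.518 FPKM, just above the minimum. *FZD3* was similarly close at 0.536 FPKM, and *FZD8* fell below at 0.228 FPKM.

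*FZD4* occupies chromosome 11 from 86945679 to 86955395 in GRCh38, on the minus strand, and has 2 coding exons. *PRSS23* (ENSG00000150687), the gene of a secreted serine protease, lies on the plus strand from 86791059 to 86952910 and runs into it. The annotated exons of the pair share 1399 of the 7387 exonic bases of *FZD4* (18.9%), through 4 of the 9 *PRSS23* transcripts and not through its canonical transcript. *PRSS23* was at 16.5, 12.8 and 28.8 FPKM in the WT replicates 1, 2 and 3, and at 42.5, 29.5 and 51.6 FPKM in the KO replicates. It thus had the same order of groups as *FZD4*, with all KO above all WT lines (log2 difference 1.11, SE 0.32, adjusted p = 0.261 by limma), and it was named for its position. The *FZD4* value was 1.54%, 2.82% and 0.911% of the *PRSS23* value in the WT replicates and 1.81%, 2.17% and 1.59% in the KO replicates, so that this share overlapped between the groups. Libraries were made with a stranded kit, but whether strand was used when fragments were assigned is not given in the sources used here. Without strand, fragments of the shared bases match both genes, and the part of *PRSS23* in the *FZD4* values was not tested.

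**Figure D1:**
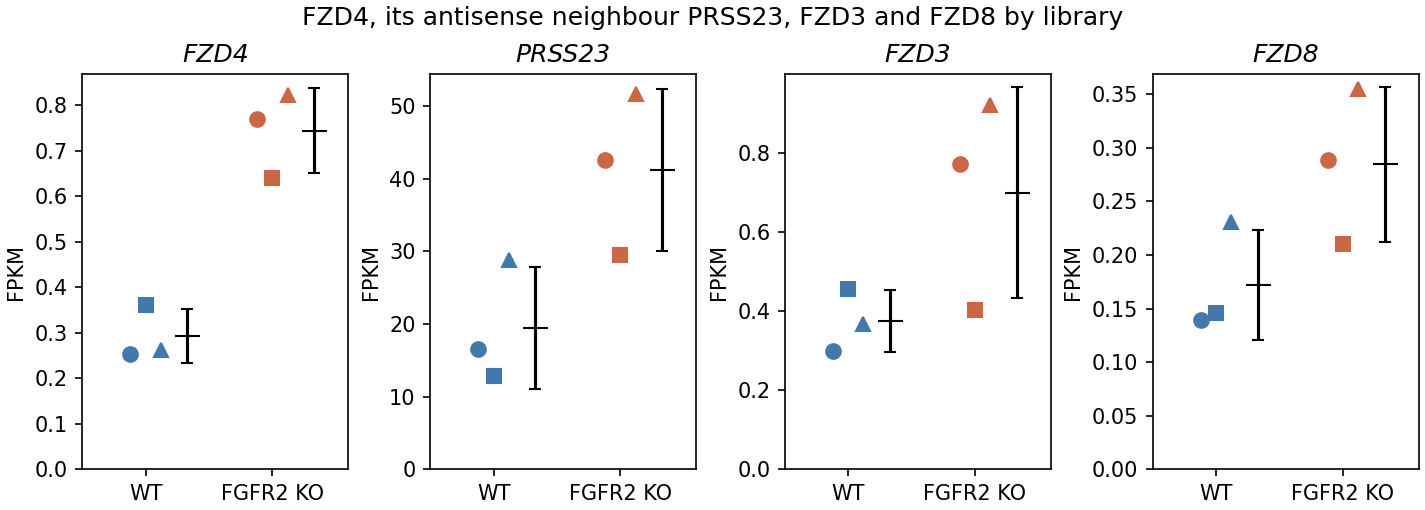
FPKM of *FZD4*, its neighbour on the opposite strand *PRSS23*, *FZD3* and *FZD8* in each WT (blue) and *FGFR2* KO (orange) line, with marker shapes for replicates 1 (circle), 2 (square) and 3 (triangle) and black bars for mean ± SD (n = 3); each axis starts at 0 and has its own scale. The groups are apart for *FZD4* and *PRSS23* and overlap for *FZD3* and *FZD8*.

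The bases before the start of *FZD4* are shown beside those of *FZD8*, the Frizzled gene with the lowest level, and *FZD1*, a Frizzled gene at a higher level with overlapping groups. Each is the 250 bases before the start in RefSeq (GRCh38.p14), 5′ to 3′ on the strand of the gene. They are chr11:86955396-86955645 (minus strand) for *FZD4*, chr10:35642297-35642546 (minus strand) for *FZD8* and chr7:91264183-91264432 (plus strand) for *FZD1*. Capitals mark matches on either strand to the GC box (GGGCGG), the CCAAT box (spelled as its name), the TATA box (TATAAA), the TCF/LEF motif in its form ending in A (CTTTGA) or in T (CTTTGT), and the AP-1 motif (TGANTCA).
FZD4: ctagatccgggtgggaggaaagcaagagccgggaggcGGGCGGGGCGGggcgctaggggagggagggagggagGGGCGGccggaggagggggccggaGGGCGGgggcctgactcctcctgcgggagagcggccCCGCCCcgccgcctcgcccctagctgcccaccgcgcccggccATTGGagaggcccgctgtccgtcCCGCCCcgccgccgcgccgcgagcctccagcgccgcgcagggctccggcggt
FZD8: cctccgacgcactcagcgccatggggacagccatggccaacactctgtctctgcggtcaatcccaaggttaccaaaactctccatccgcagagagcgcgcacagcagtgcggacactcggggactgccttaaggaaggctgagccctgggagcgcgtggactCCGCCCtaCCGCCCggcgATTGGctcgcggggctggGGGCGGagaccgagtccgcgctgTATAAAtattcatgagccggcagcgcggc
FZD1: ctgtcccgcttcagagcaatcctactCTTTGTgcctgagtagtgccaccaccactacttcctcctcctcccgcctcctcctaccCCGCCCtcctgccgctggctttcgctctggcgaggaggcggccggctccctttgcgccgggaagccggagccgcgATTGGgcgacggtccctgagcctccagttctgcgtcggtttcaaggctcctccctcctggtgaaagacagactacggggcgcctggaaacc
The *FZD4* stretch holds 6 GC boxes, of which the first and the second overlap by 1 base, and 1 CCAAT box, and it is 80.8% G or C with 33 CpG. That of *FZD8* holds 3 GC boxes, 1 CCAAT box and 1 TATA box, the last beginning 29 bases before the start. That of *FZD1* holds 1 GC box, 1 CCAAT box and 1 TCF/LEF motif ending in T. Both of these are 65.2% G or C. Among 35114 promoter stretches of this length, the median was 58% G or C with 11 CpG. A GC box was found in 42.6% of them, a CCAAT box in 32.0%, a TATA box in 10.7%, the TCF/LEF motif ending in T in 13.7% and ending in A in 11.2%, and the AP-1 motif in 6.57%. The other members found in the RefSeq table were *FZD5*, with 6 GC boxes, 1 CCAAT box, 76.8% G or C and 30 CpG, and *LRP5*, with 3 GC boxes, 87.2% G or C and 43 CpG. *FZD5*, whose groups overlapped, thus had as many GC boxes as *FZD4*. These are matches of letters only, and *FZD2*, *FZD3*, *FZD6*, *FZD7* and *LRP6* were not matched.

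*FZD3*, which with *FZD6* acts in planar cell polarity and in the guidance of axons, had a higher mean in KO with overlapping groups. It was at 0.299, 0.455 and 0.367 FPKM in the WT replicates 1, 2 and 3 and at 0.773, 0.403 and 0.921 FPKM in the KO replicates 1, 2 and 3. KO replicates 1 and 3 were above all WT lines, and KO replicate 2 lay inside the WT range. The log2 difference was 0.43 (SE 0.27) and ranged from 0.30 to 0.63 as each library was left out. It was 0.38 (SE 0.26) with median-of-ratios scaling, and 0.23 (SE 0.25) once the median of each chromosome was removed from each library, which also removes shifts of the whole library. The median of the genes of chromosome 8, which carries *FZD3* and *FZD6*, was 0.06 to 0.15 in the KO lines against −0.09 to 0.05 in the WT lines (log2, each gene relative to its WT mean, after subtraction of the median of all genes in the library).

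*FZD8* was under the filter and was not among the genes tested. It was at 0.140, 0.146 and 0.231 FPKM in WT and at 0.288, 0.211 and 0.355 FPKM in KO. KO replicates 1 and 3 lay above all WT lines, while KO replicate 2 was below WT replicate 3. At the estimated depth these values rest on 40 to 67 fragments in WT and 61 to 125 in KO. The KO mean of *FZD8* was 1.65 times its WT mean. In a fit with no filter the log2 difference was 0.22 (SE 0.09), on the scale that understates changes at such levels. The standard error of *FZD4* was 0.099 in that fit against 0.23 in the main fit, and that of *FZD3* was 0.19 against 0.27. The standard error of *FZD8* is therefore not comparable with those of the main fit. *FZD8* and *FGFR2* are both on chromosome 10, whose genes had a median of −0.43, −0.16 and −0.19 in the KO replicates 1, 2 and 3 and of 0.02, 0.14 and −0.16 in the WT replicates, on the same scale. The part of these shifts in the *FZD8* values was not tested. Its exon shares 318 bases with a long non-coding RNA gene on the opposite strand (ENSG00000287528).

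The Frizzled genes at intermediate levels, *FZD7*, *FZD1*, *FZD5* and *FZD2*, overlapped between the groups. *FZD7*, a receptor much used in β-catenin signalling of epithelial cells, was at 3.09, 2.81 and 3.79 FPKM in WT and at 3.62, 3.73 and 3.73 FPKM in KO. The KO lines were within the WT range and nearer to each other, with an SD of 0.0672 against 0.504 FPKM. Its log2 difference was 0.18 (SE 0.18), and it was 0.10 without WT replicate 2 and 0.28 without WT replicate 3. With median-of-ratios scaling the *FZD7* difference was 0.08, and with TPM scaling it was 0.22.

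*FZD1*, a close relative of *FZD2* and *FZD7* that can signal through β-catenin, was at 2.13, 1.64 and 1.77 FPKM in WT and at 1.42, 2.16 and 2.58 FPKM in KO, where replicate 1 was the lowest and replicate 3 the highest of the 6 lines. The log2 difference was 0.10 (SE 0.24) and lay between −0.05, without KO replicate 3, and 0.29, without KO replicate 1. *FZD5*, a Wnt receptor known from the intestine and the eye, was at 1.68, 1.95 and 1.51 FPKM in WT and at 1.79, 1.71 and 2.29 FPKM in KO (log2 difference 0.13, SE 0.20). Only KO replicate 3 was above the WT lines, and without it the *FZD5* difference was 0.03, against 0.21 without WT replicate 2. With median-of-ratios scaling the *FZD5* difference was 0.04, and with TPM scaling it was 0.17. *FZD2* was at 1.34, 1.63 and 0.807 FPKM in WT and at 0.977, 1.32 and 1.16 FPKM in KO, so that the KO lines were within the WT range (log2 difference −0.07, SE 0.25). It ranged from −0.27, without WT replicate 3, to 0.08, without WT replicate 2.

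The co-receptors had slightly higher means in KO, again with overlap. *LRP5* was at 28.2, 42.8 and 24.7 FPKM in WT and at 33.4, 37.2 and 37.9 FPKM in KO. The highest and the lowest of the 6 levels were WT lines. The log2 difference was 0.21 (SE 0.21), and it was 0.05 without WT replicate 3 and 0.44 without WT replicate 2. With median-of-ratios scaling the *LRP5* difference was 0.10, and with TPM scaling it was 0.25. *LRP6*, its paralog, was at 9.49, 6.44 and 11.1 FPKM in WT and at 9.41, 10.9 and 11.5 FPKM in KO (log2 difference 0.25, SE 0.21). Only KO replicate 3 was above the WT lines for *LRP6*, whose difference was 0.04 without WT replicate 2 and 0.41 without WT replicate 3. With median-of-ratios scaling the *LRP6* difference was 0.14, and with TPM scaling it was 0.29. *LRP5* exceeded *LRP6* in each library, by 2.97, 6.64 and 2.23 times in WT and by 3.55, 3.42 and 3.30 times in KO. WT replicate 2 held the highest level of *LRP5* and the lowest of *LRP6*. Both genes have 23 coding exons, whereas *FZD1*, *FZD2*, *FZD5*, *FZD7* and *FZD8* have 1.

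Of the 9 members tested, the groups did not overlap for 1, *FZD4*, against 24.1% of all tested genes, and 0 were called. Nothing is read from this count, since *FZD4* was singled out for its difference and *FZD4* and *FZD3* passed the filter through their KO levels. The count rose to 4 without WT replicate 2 (*FZD3*, *FZD4*, *FZD5* and *LRP5* above WT) and to 3 without WT replicate 3 (*FZD4* and *FZD7* above and *FZD2* below WT). It was 2 without KO replicate 1 (*FZD1* and *FZD4*) and without KO replicate 2 (*FZD3* and *FZD4*), and groups of fewer libraries are apart more easily. The share over all tested genes was not taken in these settings, so nothing is read from these counts either.

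**Figure D2:**
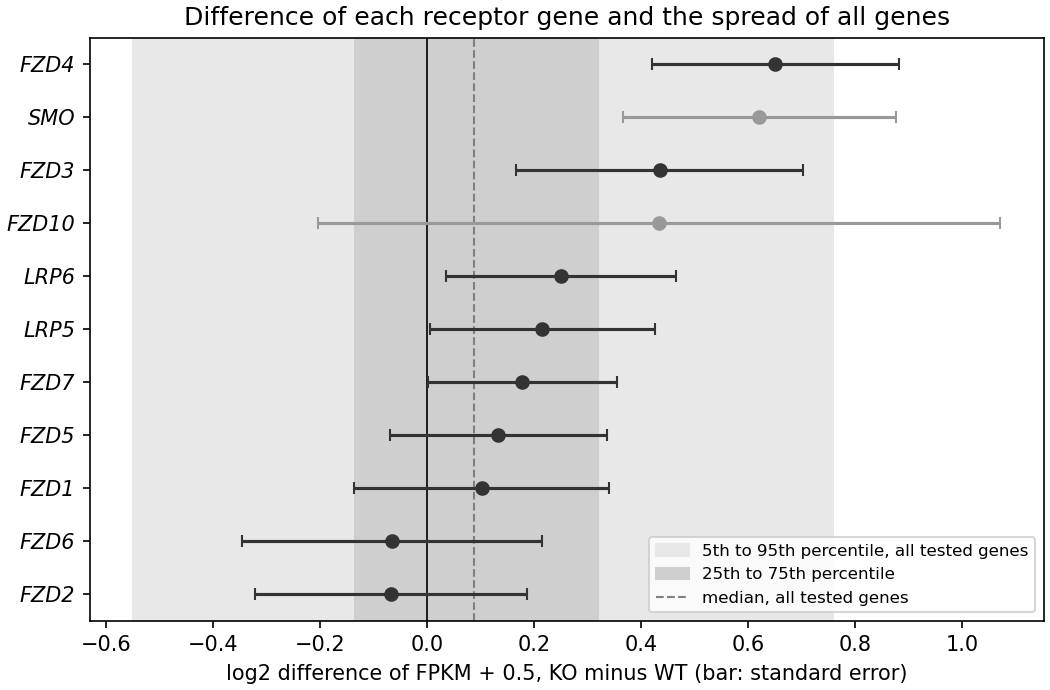
Log2 difference of FPKM + 0.5, KO minus WT, for the 9 tested members (black) and *FZD10* and *SMO* (grey), with bars for the standard error; the shaded bands hold the middle of the differences of all 12241 tested genes and the dashed line is their median, 0.09. *FZD4*, at 0.65, lies inside the band from the 5th to the 95th percentile, −0.55 to 0.76. The added 0.5 FPKM understates its difference more than that of most genes in the band, of which 10753 averaged 2 FPKM or more. When 0.1 FPKM was added the *FZD4* difference was 1.11, and the band was not taken in that setting.

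The sum of *FZD1* to *FZD10* overlapped between the groups, at 58.5 to 91.4 FPKM in WT (mean 76.8) and 57.4 to 101.8 FPKM in KO (mean 77.2). Without *FZD6*, a subset taken after the values were seen, the remaining Frizzled genes together were at 9.81, 9.09 and 10.5 FPKM in the WT replicates 1, 2 and 3 and at 12.1, 11.9 and 12.1 FPKM in the KO replicates. All KO sums were above all WT sums, also after scaling to TPM or by median of ratios, where the difference of the means was 1.34 in place of 2.21 FPKM. The difference came from several genes: *FZD10*, which overlapped widely between the groups, added 0.527 FPKM, *FZD7* 0.462, *FZD4* 0.452 and *FZD3* 0.325 FPKM between the group means, and *FZD2* differed by −0.109 FPKM. *FZD4* was 2.50% to 3.96% of this sum in WT and 5.40% to 6.80% in KO. *FZD7* was the largest component in each library, with 29.9% to 36.1%.

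**Figure D3:**
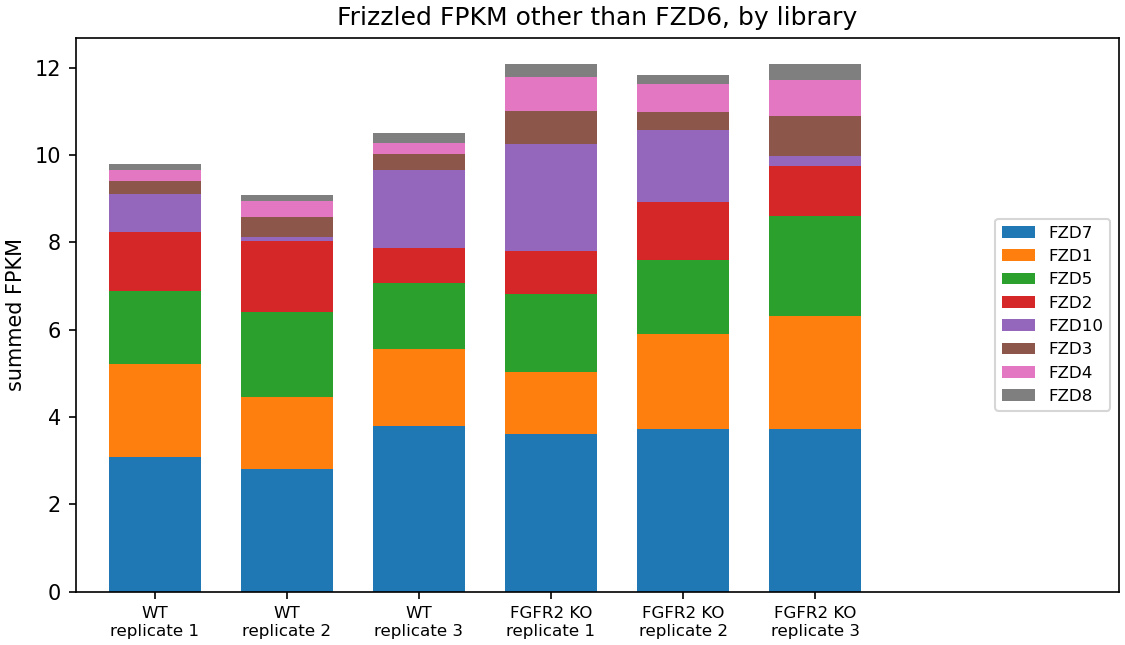
Stacked bars of the FPKM of the Frizzled genes other than *FZD6* (*FZD9*, at or near 0, is not drawn) in each library. The KO bars reach 11.9 to 12.1 FPKM and the WT bars 9.09 to 10.5 FPKM, and the *FZD10* segment varies from 0.0988 to 2.45 FPKM between lines.

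Of the other members of the receptor class, *FZD10* (ENSG00000111432) varied most between lines. It was at 0.873, 0.0988 and 1.77 FPKM in WT and at 2.45, 1.65 and 0.224 FPKM in KO, so that each group had 1 line far below its other lines. Its log2 difference was 0.43 (SE 0.64, adjusted p = 0.745 by limma), with −0.09 without WT replicate 2 and 1.03 without KO replicate 3. *FZD9* (ENSG00000188763) was listed at 0 in WT replicates 1 and 3 and did not exceed 0.0196 FPKM in any library. *SMO* (ENSG00000128602), the related receptor of the Hedgehog pathway, was at 23.7, 13.2 and 23.5 FPKM in WT and at 26.8, 27.4 and 37.6 FPKM in KO. All KO lines were above the WT lines, but the difference of 0.62 (SE 0.26) did not pass the test (adjusted p = 0.285 by limma) and was 0.35 without WT replicate 2.

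Further genes of the pathway were taken from 9 lists holding 99 genes, all of them measured, of which 62 were tested. limma called 0 of the 62. Without adjustment, 4 were higher and 1 was lower in KO past both thresholds (8.06%, against 12.5% of all tested genes). The groups did not overlap for 12 of them (19.4%, against 24.1%). In 7 of these, *PORCN*, *ZNRF3*, *AXIN1*, *CSNK1E*, *AMER1*, *PYGO2* and *MYC*, all KO lines were above all WT lines, and in 5, *RNF43*, *VANGL2*, *BTRC*, *TLE3* and *BAMBI*, below. Of these, *AXIN1*, *CSNK1E*, *AMER1*, *RNF43*, *VANGL2*, *BTRC* and *TLE3* were named after their values were seen. The median log2 difference of the 62 genes was 0.09, the same as over all genes at this rounding.

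Among the 19 Wnt ligands, 9 were tested and 0 were called. *WNT10A*, a ligand known from hair, tooth and sweat gland formation, had by far the highest level, with 216 ± 20.02 FPKM in WT and 229 ± 20.2 FPKM in KO (log2 difference 0.09, SE 0.14, and 0.02 to 0.15 as each library was left out). *WNT4* followed with 29.6, 36.1 and 34.1 FPKM in WT and 22.2, 35.6 and 12.6 FPKM in KO (log2 difference −0.61, SE 0.33, adjusted p = 0.383 by limma). It was −0.23 without KO replicate 3 and −0.96 without KO replicate 2. The ligands with a mean under the filter included *WNT1*, *WNT2*, *WNT3A*, *WNT5A*, *WNT6* and *WNT16*.

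Ligand secretion needs PORCN, which attaches a lipid to Wnt proteins, and WLS, which carries them to the cell surface. *PORCN* was at 7.77, 5.15 and 6.96 FPKM in WT and at 11.5, 8.58 and 23.9 FPKM in KO. All KO lines were above the WT lines and KO replicate 3 was the highest (log2 difference 0.98, SE 0.36, adjusted p = 0.263 by limma), with 0.57 when that line was left out. *WLS* was at 60.6 ± 20.1 FPKM in WT and 62.6 ± 7.48 FPKM in KO (log2 difference 0.09, SE 0.23, and −0.10 to 0.34 as each library was left out).

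Of the 15 secreted antagonists and KREMEN genes, 6 were tested. *DKK3*, a member of the Dickkopf family, had the largest difference of the 62 genes. Its level was 10.3, 4.40 and 16.7 FPKM in WT and 31.4, 14.4 and 52.1 FPKM in KO (log2 difference 1.59, SE 0.56, adjusted p = 0.261 by limma). KO replicate 2 lay below WT replicate 3, so the groups overlapped. *KREMEN1*, a receptor for Dickkopf proteins that removes LRP6 from the membrane, was at 79.6 ± 15.2 FPKM in WT and 98.0 ± 18.9 FPKM in KO (log2 difference 0.30, SE 0.20, and 0.13 without WT replicate 2). *DKK1*, the inhibitor of LRP5 and LRP6, was at 21.0 ± 6.64 FPKM in WT and 27.4 ± 15.6 FPKM in KO (log2 difference 0.26, SE 0.42), and its difference turned to −0.16 without KO replicate 3 and was 0.71 without KO replicate 1.

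ZNRF3 and RNF43 are ubiquitin ligases that remove Frizzled receptors from the cell surface, and R-spondins with LGR receptors oppose them. *ZNRF3* was at 1.94, 1.41 and 2.48 FPKM in WT and at 3.10, 3.05 and 6.20 FPKM in KO. All KO lines were above the WT lines (log2 difference 0.87, SE 0.31, adjusted p = 0.261 by limma), with 0.57 without KO replicate 3. *RNF43* had a lower mean in KO, at 4.40 ± 0.678 FPKM in WT and 3.56 ± 0.0560 FPKM in KO (log2 difference −0.26, SE 0.18, adjusted p = 0.461 by limma). *LGR4* was at 22.8 ± 6.53 FPKM in WT and 23.4 ± 7.36 FPKM in KO, and *LGR6* at 10.4 ± 4.62 and 9.98 ± 5.05 FPKM. The 4 R-spondin genes did not exceed 0.0254 FPKM, and *LGR5* was listed at 0 in all 6 libraries.

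The partners of FZD4 in its response to Norrin or to certain Wnt ligands were at low levels. *NDP*, the gene of Norrin, was listed at 0 in all 6 libraries. *RECK* did not exceed 0.561 FPKM, *TSPAN12* 0.244 FPKM and *ADGRA2* 0.0962 FPKM, so that 0 of the 4 genes passed the filter.

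Of the 11 other Wnt receptors and planar polarity genes, 9 were tested and 0 called. *PTK7*, a Wnt co-receptor of planar polarity, was at 69.5 ± 3.81 FPKM in WT and 74.1 ± 7.74 FPKM in KO. *CELSR2*, a cadherin of planar polarity, was at 67.2 ± 5.89 and 63.4 ± 12.7 FPKM. Both levels were near that of *FZD6* in WT, 67.0 FPKM.

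All 16 genes of the Dishevelled, destruction complex and β-catenin list were tested, with differences from −0.33 to 0.56 and a median of 0.10. *GSK3B*, the kinase that marks β-catenin for destruction, was at 134 ± 9.92 FPKM in WT and 129 ± 10.98 FPKM in KO, and *DVL3* at 118 ± 4.19 and 112 ± 7.48 FPKM. In the TCF/LEF list, 12 of 14 genes were tested, with a median of −0.10. *BCL9L*, a co-activator of β-catenin, was at 112 ± 11.6 and 92.6 ± 17.1 FPKM (log2 difference −0.29, SE 0.17, and −0.13 without KO replicate 3), and *PYGO2*, its partner, at 32.0 ± 1.09 and 36.7 ± 2.74 FPKM (log2 difference 0.20, SE 0.12).

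Of the 16 target genes listed, 8 were tested and 8 were under the filter, among them *AXIN2*, a direct target in many tissues, at 0.0467 to 0.411 FPKM in WT and 0.00641 to 0.0632 FPKM in KO. *MYC*, which many pathways besides Wnt regulate, was at 18.6, 29.25 and 25.2 FPKM in WT and at 44.1, 29.32 and 57.7 FPKM in KO. KO replicate 2 was barely above the highest WT line (log2 difference 0.80, SE 0.27, adjusted p = 0.261 by limma). *BAMBI*, a decoy receptor of the TGF-β family, was at 1.79, 1.48 and 3.25 FPKM in WT and at 0.742, 1.04 and 0.888 FPKM in KO, with all KO lines below WT (log2 difference −0.89, SE 0.28, adjusted p = 0.261 by limma). It lies on chromosome 10, and the difference was −0.73 (SE 0.32) once chromosome medians were removed. *CCND1*, encoding cyclin D1, was at 377 ± 104 and 395 ± 56.2 FPKM, and *APCDD1*, a membrane inhibitor of Wnt signalling, at 55.9 ± 19.8 and 51.9 ± 17.8 FPKM.

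The genes with the pattern most like that of *FZD4* were ranked by Pearson's r over the 6 libraries on the same log2 scale, as a description. They were *FOS* (r = 0.996), *ZNF30* (0.996), *ITM2C* (0.996), *SF1* (0.988) and *SFI1* (0.984). *FOS*, a subunit of the AP-1 factor, was at 1.41, 2.25 and 1.75 FPKM in WT and at 6.39, 5.04 and 6.59 FPKM in KO. *ITM2C*, a membrane protein gene, was at 9.04, 10.3 and 8.67 FPKM in WT and at 17.2, 15.7 and 19.7 FPKM in KO. Both had, like *FZD4*, the highest WT level in replicate 2 and the lowest KO level in replicate 2, a match that the ranking itself selects for. All libraries share the same split into KO and WT, so genes whose groups are apart in the same direction tend to correlate with *FZD4*. Among the members, r with *FZD4* was 0.86 for *FZD3*, 0.62 for *FZD5*, 0.54 for *LRP5* and 0.50 for *FZD7*, and it was lower for *LRP6* (0.32), *FZD1* (0.17), *FZD2* (−0.08) and *FZD6* (−0.22). For *PRSS23* it was 0.78.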

How the data were processed

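RNA of 3 WT and 3 *FGFR2* KO HaCaT lines was sequenced from stranded poly(A) libraries. The authors trimmed reads with fastp 0.20.0 and assigned them to GENCODE transcripts with kallisto 0.46.1 (GRCh38.p13). The values the authors deposited are FPKM; how they were calculated is not given in the sources used here. Of 21493 genes, 18 Y copies of pseudoautosomal genes were removed. Gene positions came from GENCODE for GRCh38. The depth of each library was taken as the one that made the most low values whole fragments. With these depths, 67.3% of 4465 low values were whole within 0.02, so counts were not recovered. The share by chance, 4%, holds for a depth fixed beforehand and is not a like comparison.

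The 12241 genes averaging 0.5 FPKM or more were fitted on log2(FPKM + 0.5) with limma 3.58.1 in R 4.3.3, with a mean-variance trend and Benjamini-Hochberg adjustment. The p-values set the difference of the group means against the spread between lines, 1 library each, which limma moderates by the trend over all fitted genes. Pathway genes were named by level (the 2 highest of a list) or by unadjusted p and fold (up to 4). The members and lists were chosen with earlier results of these data known. Replicate numbers are not stated to pair the lines, so the main fit was unpaired. Alternatives were another pseudocount (0.1, 1) or filter (none, 2 FPKM), TPM, median-of-ratios and quantile scaling, a replicate block, a robust fit and leaving out each library; removal of chromosome medians was added after seeing the data. The WT order was also taken from TPM and from ranks.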

Additional observations from a re-analysis of the deposited data

How the results depend on the processing

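Over all genes, the count called stayed at 0 under every alternative run, as it did for the Wnt pathway lists. The count of members whose groups did not overlap, 1 of 9, was 1 to 4 as each library was left out, with 4 without WT replicate 2, and 0 of 4 with a filter of 2 FPKM, which removed *FZD4*. Nothing is read from these counts, as the share over all tested genes was not taken in these settings. *FZD4* was 1.11 with a pseudocount of 0.1. The genes higher and lower in KO without adjustment numbered 1251 and 285, and 798 and 457 after removal of chromosome medians, an alternative chosen after seeing the data; leaving out each library gave as few as 539 higher and 94 lower, both without KO replicate 3. After the group means were removed, same-numbered lines correlated at −0.21, 0.22 and 0.05. With so few lines per group these values cannot decide whether the numbers pair the lines, which the sources used here do not state. With a replicate block, *FGFR2* was at −2.73 with an adjusted p of 0.0972 by limma. In that fit 1336 genes were higher and 426 lower without adjustment, and 0 were called. In WT, 6 of 9 neighbour pairs were apart by FPKM and by TPM. By ranks, 8 pairs had the same order within each of the 3 libraries, a weaker condition that does not compare levels between libraries.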
